A study of Mus musculus with 21 samples.

Results

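The replication-dependent histone genes are the 62 genes whose symbols follow the pattern of the clustered H1, H2A, H2B, H3 and H4 genes, out of 24594 genes in the deposited tables. They were found by symbol alone. They comprise 6 H1 genes, 15 H2A genes, 17 H2B genes, 12 H3 genes and 12 H4 genes. Of these, 53 lie in the Hist1 cluster on chromosome 13 and 9 in the Hist2 cluster on chromosome 3. Core histones (H2A, H2B, H3 and H4) build the nucleosome around which DNA is wound, and H1 binds the linker DNA between nucleosomes.

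A cell that copies its genome needs a matching supply of histones, and these genes are transcribed strongly in S phase, the phase of DNA replication. Unlike other mRNAs, most of their mRNAs have no poly(A) tail. They end shortly after a short stem-loop that is bound by Slbp, and they are destroyed when replication ends. Npat is the coactivator of their transcription. Libraries primed from poly(A) tails largely miss such mRNAs, and the libraries described here are labelled as made from total RNA with a TruSeq RNA kit. That kit usually selects poly(A) RNA first, and whether the step was used is not given in the sources used here.

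Gene counts of 21 RNA-seq libraries in 7 groups of 3 were used, all from mice of mixed C57Bl/6J and CD1 background with both sexes pooled. For the stage series, FACS was used to sort cranial neural crest cells (CNCCs), the source of most facial mesenchyme, from Wnt1::Cre;ROSA RFP embryos. Cre in these mice is under the Wnt1 promoter, which is active early in the crest, so the sorted red cells are crest derivatives. They were taken at embryonic stage E10.5 from the second pharyngeal arch (PA2), and at E12.5 and E14.5 from its derivative, the pinna (external ear). These embryos count as wild type (WT). In the genotype series, PA2 and PA3 were dissected at E10.5 from WT embryos and from HIRE1del/del embryos (HIRE1del below). That line was made by CRISPR/Cas9 deletion of HIRE1, a distant regulatory region of Hoxa2. All 21 libraries are labelled as CNCCs, but no sort or reporter is stated for the genotype series. Replicates are described as biological, and p-values measure the spread between these samples.

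Totals per library were 25.8 to 32.21 M counts, apart from 47.51 to 49.06 M at E14.5. The labelled cell type was checked with 6 markers of crest mesenchyme, all at 1 CPM (counts scaled to the library total with TMM factors) or more in every group. Their summed level was 1676 to 1928 CPM at E10.5, 3530.3 to 3809.6 CPM at E12.5 and 3737 to 4141 CPM at E14.5. In the sorted cells, 8 erythroid markers summed to at most 18.7 CPM, and 5 macrophage markers to at most 2.54 CPM. Markers of melanocytes, which also descend from the crest, summed to 49.2 to 68.9 CPM at E12.5 and to 359.6 to 409 CPM at E14.5 (5 of 5 called higher). Endothelial markers summed to 19.3 to 27.9 CPM and to 109.7 to 173 CPM (1 of 5 tested called higher, Kdr). Schwann cell and glia markers summed to 21.6 to 25.6 CPM at E12.5 and to 84.3 to 99.8 CPM at E14.5 (4 of 4 tested called higher, median log2 fold change 1.86), and epithelial markers to 7.84 to 9.66 CPM and to 24.8 to 42.6 CPM (3 of 5 tested higher, 2 lower). The part of these cells in the values below was not tested. In the genotype series Hoxa2 stood at 73.4, 77.2 and 84.3 CPM in WT PA2 and at 5.75, 4.75 and 7.1 CPM in HIRE1del PA2. In PA3 it stood at 56.0, 62.9 and 65.1 CPM against 23.7, 25.6 and 22.1 CPM, so these libraries match their genotype labels.

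Histone genes are copies of each other, and this limits what a count says about a single gene. Of all stretches of 50 bases in a member, the length of 1 read, the median member had 45.4% found in no other gene. The class medians ran from 32.9% for H2A and 50.3% for H2B to 98.8% for H1. At least 80% of the stretches were unique in 12 members. H2bc18 had none, since its whole sequence recurs in the annotated transcript Gm20628. H2bc23 and H2bc24 are near-identical neighbours, and their counts differed by at most 5 in any of the 21 libraries while ranging from 99 to 11032. H1f4 and H2bc6 overlap by 496 exonic bases on the same strand, so their reads cannot be told apart there. Values of single core histone genes are therefore uncertain. Sums over a class do not depend on how reads are split between members of that class. They would still hold a read more than 1 time if it was counted in more than 1 member. Whether the same reads were counted in both H2bc23 and H2bc24 was not tested. Sums over a class also do not avoid the sharing with genes outside it, such as Gm20628.

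The stem-loop that ends the mRNA is the feature that the members share outside the protein. The pattern of GG, 2 bases of any kind, CTTTT, 1 base, AG, 2 bases and CC, with at least 5 of its 6 stem pairs intact, was searched on the transcribed strand after the stop codon of the annotated GENCODE M21 transcripts (GRCm38). It was found in 38 of the 44 members whose transcript runs at least 60 bases past the stop codon (86.4%), and in 17 of 20493 other protein-coding genes with such a tail (0.083%). The following genes show the 6 forms found, with the stem and loop in capitals, 5′ to 3′ on the gene's strand.
H1f2 (chr13:23739512-23739527, plus strand): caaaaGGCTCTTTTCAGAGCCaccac
H2ac4 (chr13:23751572-23751587, plus strand): acaaaGGCTCTTTTCAGAGCCaccca
H2bc3 (chr13:23747203-23747218, plus strand): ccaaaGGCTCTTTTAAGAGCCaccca
H2ac20 (chr3:96220418-96220433, minus strand): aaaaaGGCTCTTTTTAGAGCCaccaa
H4c4 (chr13:23581950-23581965, plus strand): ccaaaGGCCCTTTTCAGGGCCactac
H4c11 (chr13:21735437-21735452, plus strand): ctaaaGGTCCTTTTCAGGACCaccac
H4c14 (chr3:96262939-96262954, minus strand): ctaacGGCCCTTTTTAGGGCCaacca
The form seen in H1f2 and H2ac4 was the most frequent, in 22 of the 39 members with a stem-loop. The form of H2bc3 was found in 6 members of the classes H1, H2B and H3. All 10 H4 stem-loops differed from the others in the stem, 6 having the form of H4c4, 2 that of H4c11 and 2 that of H4c14. H2bc21, H2bc4, H2bc23, H2bc24, H3c8 and H4c1 had a long enough annotated tail but no match.

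Between E10.5 and E12.5, histone mRNA fell across all 5 classes. Summed over the 62 members, the 3 E10.5 PA2 libraries held 15800, 15986 and 13448 CPM. The 3 E12.5 pinna libraries held 7387, 7290.4 and 6663 CPM. The groups lay far apart, with means of 15078 ± 1415 CPM and 7113 ± 393 CPM (SD, n = 3) and a log2 ratio of −1.08. Histone mRNA thus made up 1.36 to 1.59% of all counts at E10.5 and 0.696 to 0.77% at E12.5. In bulk RNA, fewer cells in S phase and less histone mRNA per cell cannot be told apart.

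Genes were tested one by one with the edgeR quasi-likelihood test over all genes of a table, and a gene was called at a Benjamini-Hochberg adjusted p under 0.05. Of the 61 members with at least 1 CPM in 2 libraries or more, 58 were called lower at E12.5 and 0 higher. Among all 13438 genes tested, 33.7% were called lower. The background for falls of at least 2-fold was 6.79% of all genes, against 46 of 61 members (75.4%). The median log2 fold change of the members was −1.08, beside 0.01 for all genes. Without 1 library, 48 to 55 members were called lower. The median hardly differed between classes, at −1.02 for H1, −1.05 for H2A, −1.13 for H2B, −1.06 for H3 and −1.12 for H4. The 3 members not called were the testis H1 gene H1f6 (log2 fold change −0.27 ± 0.277 SE, adjusted p = 0.411), H2ac10 (−0.87 ± 0.367, adjusted p = 0.0526) and H2bc21 (0.11 ± 0.13, adjusted p = 0.466).

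Between E12.5 and E14.5, histone mRNA fell again, and by more. The 3 E14.5 pinna libraries held 1597, 1890.5 and 2672 CPM of histone mRNA (mean 2053 ± 556, SD, n = 3), all far below the lowest E12.5 library. The log2 ratio was −1.79 against E12.5 and −2.88 against E10.5, and histones made up 0.153 to 0.253% of the counts. In the test, 60 of 61 members were lower at E14.5 than at E12.5 and 0 were higher, where 33.1% of all genes were lower. A fall of at least 2-fold was called in 59 members (96.7%), beside 7.53% of all genes. The median was −2.07. Over the whole course, from E10.5 to E14.5, 60 members were lower and 0 higher, with 40.0% of all genes lower. All 60 fell at least 2-fold, as did 16.2% of all genes, and their median was −3.22. The 3 stage comparisons share libraries, so they are not independent of each other. The stages also differ in the enzyme that freed the cells, trypsin at E10.5 and E12.5 and papain at E14.5, so an effect of the enzyme cannot be told apart from the step to E14.5.

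**Figure D1:**
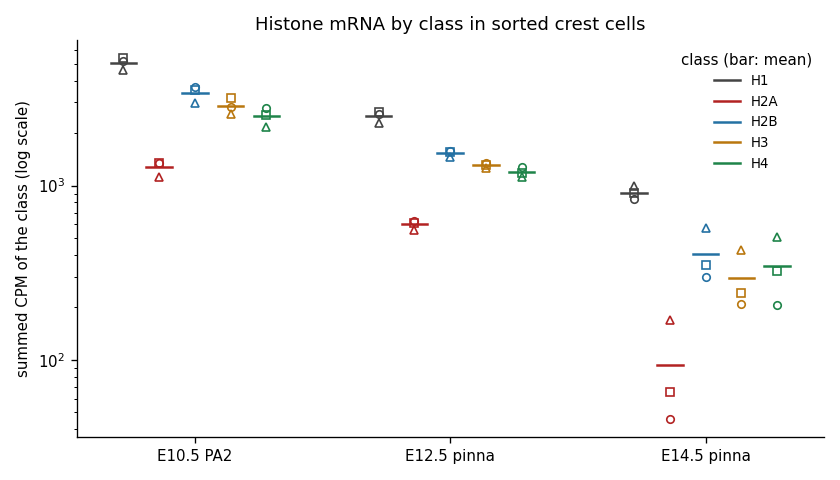
Summed histone CPM of each class (vertical axis, log scale) in the 3 libraries of each stage, with circles, squares and triangles for replicates 1, 2 and 3 and bars for means. All 5 classes step down at each stage, and the H2A sum drops furthest at E14.5, to between 45.8 and 169 CPM.

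The second step differed between classes in size. The median log2 fold change from E12.5 to E14.5 was −1.46 for H1, −2.79 for H2A, −2.07 for H2B, −2.0 for H3 and −1.94 for H4. Over the whole course it was −2.56 for H1, −3.87 for H2A, −3.37 for H2B, −3.18 for H3 and −3.0 for H4. H1 mRNA accordingly took 32.8 to 34.3% of all histone mRNA at E10.5, 34.1 to 36.0% at E12.5 and 37.2 to 52.3% at E14.5. H2A mRNA took 8.34 to 8.52% in the 6 libraries of the first stages and 2.87 to 6.34% at E14.5. These shares were not tested. The classes also differ in how unique their sequences are, as given above. Members with at least 80% unique stretches had a median of −2.56 over the course (12 genes), those with 20 to 80% a median of −3.49 (32 genes) and those under 20% a median of −3.27 (17 genes).

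**Figure D2:**
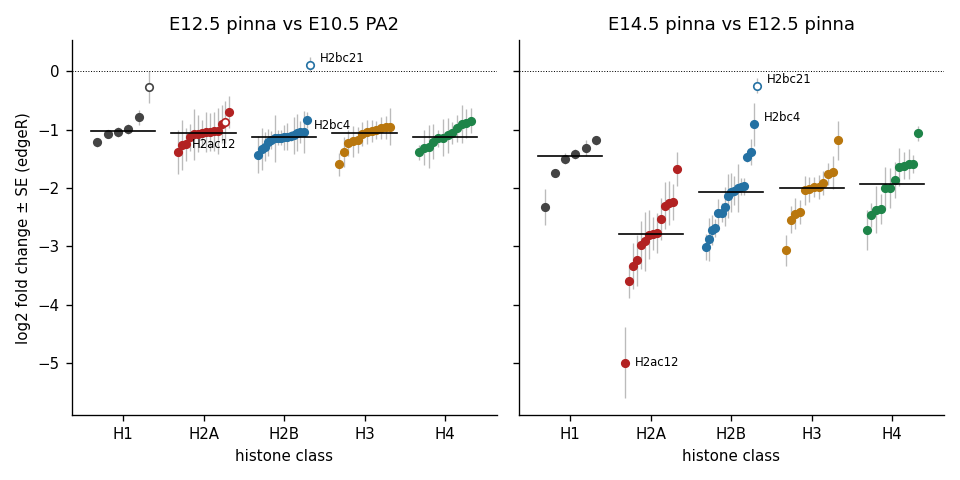
Log2 fold change of each tested member (points, with SE as grey lines) in the steps from E10.5 to E12.5 and from E12.5 to E14.5, by class. Filled points were called at an adjusted p under 0.05, open points were not, and black bars mark class medians. Nearly all points lie near −1 in the first step, and they spread from −0.25 to −4.99 in the second.

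H1f1 had the highest level of the linker histones and was, per kilobase, 1 of the 2 most abundant members at E10.5 (2026 CPM per kb). Its libraries held 1495, 1597 and 1412 CPM at E10.5, then 725, 726 and 673 CPM at E12.5 and 200.3, 209 and 228 CPM at E14.5. It fell by 1.08 ± 0.0687 and then by 1.74 ± 0.07 on the log2 scale (adjusted p = 1.4e-07 and 7.87e-09). The groups did not overlap, and replicates of H1f1 lay close together at all stages. H1f3 fell from 1127, 1137 and 922 CPM at E10.5 to 169.6, 179 and 202 CPM at E14.5 (−2.53 ± 0.0971, adjusted p = 7.54e-10). H1f4 fell from 948, 974 and 921 CPM to 188, 213 and 230.2 CPM (−2.17 ± 0.081, adjusted p = 6.26e-10). Both are somatic linker histones made in dividing cells, like H1f1. H1f5 stood at 761, 776 and 658 CPM at E10.5 and at 108, 122 and 126 CPM at E14.5 (−2.63 ± 0.088, adjusted p = 2.8e-10).

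The H2A genes fell furthest. H2ac4, with the highest H2A level, held 321, 311 and 259 CPM at E10.5, 149.5, 139 and 135 CPM at E12.5 and 9.96, 16.1 and 36.0 CPM at E14.5. The change over the course was −3.84 ± 0.357 (adjusted p = 1.14e-06). H2ac15 held 216, 278 and 202 CPM, then 112, 123 and 107 CPM, and then 4.78, 7.51 and 23.8 CPM. For H2ac15 the first step (−1.02 ± 0.39, adjusted p = 0.0355) was no longer called when E10.5 replicate 1 or 2 or any E12.5 replicate was left out, with values of −1.08 to −0.88. Its second step was −3.24 ± 0.436 (adjusted p = 5.85e-05). H2ac6, at 194, 187 and 153 CPM at E10.5 and 7.75, 9.9 and 27.4 CPM at E14.5, changed by −3.57 ± 0.368 over the course (adjusted p = 2.86e-06), and its first step (−1.04) lost its call without E12.5 replicate 3 (−0.99). In these genes the E14.5 libraries were several-fold apart from each other, with replicate 3 highest.

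The largest falls over the course were those of H2ac12, H2ac8 and H2ac7. H2ac12 held 23.4, 26.2 and 46.4 CPM at E10.5, 20.4, 10.3 and 9.66 CPM at E12.5 and 0.022, 0.21 and 1.03 CPM at E14.5. The last 3 values rest on 1, 10 and 47 counts. Its change was −6.25 ± 0.607 (adjusted p = 1.68e-06), the widest SE of any member, and only 7.9% of its stretches are unique. H2ac8 fell from 78.7, 72.0 and 64.4 CPM to 1.56, 2.12 and 4.8 CPM (−4.66 ± 0.282, adjusted p = 2.79e-08). H2ac7 fell from 102, 83.8 and 65.1 CPM to 1.52, 3.03 and 7.69 CPM (−4.36 ± 0.399, adjusted p = 9.94e-07). In all 3 genes the lowest E10.5 library lay far above the highest E14.5 library.

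Among H2B genes, H2bc18 had the highest level of any member per kilobase, 2158 CPM per kb at E10.5, but its reads are shared with Gm20628. It held 868, 863 and 735 CPM at E10.5, 397, 395 and 350.1 CPM at E12.5 and 145, 126 and 142 CPM at E14.5. The change over the course was −2.58 ± 0.0882 (adjusted p = 3.26e-10). H2bc3 held 692, 697 and 535 CPM, then 321, 317 and 294 CPM, and then 30.4, 52.7 and 103 CPM (−3.37 ± 0.344, adjusted p = 2.64e-06). H2bc14 went from 413, 371 and 310.4 CPM to 18.8, 25.4 and 43.1 CPM (−3.65 ± 0.249, adjusted p = 7.89e-08). H2bc18 thus kept tight replicates at E14.5, while H2bc3 and H2bc14 spread more than 2-fold. H2bc11, among the 3 largest falls of the first step, dropped from 260.1, 229.8 and 176 CPM to 84.7, 85.8 and 77.3 CPM at E12.5 (−1.43 ± 0.319, adjusted p = 0.002).

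The H3 genes with the highest counts had similar courses. H3c6 held 662, 708 and 637 CPM at E10.5, 332, 327 and 318 CPM at E12.5 and 39.6, 44.4 and 83.8 CPM at E14.5 (over the course −3.58 ± 0.234, adjusted p = 5.44e-08). H3c7 held 502, 746 and 438 CPM, then 217, 212 and 221 CPM, and then 28.7, 31.6 and 59.7 CPM (−3.81 ± 0.28, adjusted p = 1.48e-07). These 2 genes share 41.0 to 63.2% of their stretches with each other, so their parallel courses are not separate evidence. H3c2 went from 438, 447 and 392 CPM to 43.7, 55.6 and 86.8 CPM (−2.78 ± 0.198, adjusted p = 1.12e-07). H3c8 had the largest called fall of the first step, from 208, 207 and 168 CPM to 69.1, 64.7 and 59.5 CPM (−1.59 ± 0.198, adjusted p = 2.61e-05).

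For H4, the most conserved of the core histones, H4c4 held 765, 721 and 604 CPM at E10.5, 357, 341 and 364 CPM at E12.5 and 66.3, 121 and 158 CPM at E14.5. Its change over the course was −2.6 ± 0.241 (adjusted p = 1.12e-06). H4c8 went from 435, 407 and 350.2 CPM to 24.1, 41.4 and 75.5 CPM (−3.08 ± 0.321, adjusted p = 3.11e-06). H4c3 went from 385, 354 and 314 CPM to 37.8, 53.8 and 96.8 CPM (−2.48 ± 0.264, adjusted p = 3.72e-06). All 3 showed the same order of the E14.5 libraries, with replicate 1 lowest and replicate 3 highest. H4c14, a Hist2 gene with 99.0% unique stretches, had E14.5 libraries that lay closer together. It held 183, 169 and 140.4 CPM, then 69.9, 65.1 and 53.7 CPM (−1.39 ± 0.128, adjusted p = 2.53e-06), and then 30.0, 26.3 and 34.4 CPM.

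Some members are also known to be made as ordinary polyadenylated mRNA in cells that have left the cycle, and 3 such genes, H1f2, H2bc4 and H2bc21, were followed as a list. H2bc21 held 15.0, 13.7 and 18.4 CPM at E10.5, 14.2, 18.8 and 17.9 CPM at E12.5 and 14.9, 14.1 and 14.0 CPM at E14.5. The 3 groups overlapped, and H2bc21 was the one member tested that was called in none of the 3 stage comparisons (over the course −0.13 ± 0.129, adjusted p = 0.344). All of its 50-base stretches are unique, its annotated transcript runs 2192 bases past the stop codon, and no stem-loop was found in it. Its level was low, 5.99 CPM per kb at E10.5. H2bc4 held 43.3, 40.8 and 34.2 CPM, then 18.5, 20.9 and 18.1 CPM, and then 5.33, 6.39 and 19.0 CPM. It had the smallest called fall over the course (−1.95 ± 0.367, adjusted p = 0.000415). Its first step (−1.04 ± 0.358, adjusted p = 0.0226) lost its call without E10.5 replicate 1 or 2 or E12.5 replicate 1 or 3, with values of −1.02 to −0.97. Its second step (−0.91 ± 0.369, adjusted p = 0.0486) had overlapping groups and was no longer called without any one of the E12.5 libraries or without E14.5 replicate 1 or 2, with values of −0.96 to −0.59. H1f2 had the next smallest, from 843, 882 and 688 CPM at E10.5 to 170, 182 and 208 CPM at E14.5 (−2.11 ± 0.138, adjusted p = 5.34e-08), and it has a stem-loop 25 bases after the stop codon with 840 more bases of annotated transcript beyond it.

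H2A and H2B genes often lie head to head and share the DNA between their starts. There were 11 such pairs with at most 500 bases between the annotated starts (175 to 305 bases), and 10 of them had both genes tested. The H2A gene had the more negative value of the pair in 10 of 10 pairs from E10.5 to E14.5, with a median difference of −1.04 on the log2 scale. Several of these H2A genes share most of their stretches, such as H2ac12 and H2ac13 with H2ac7 (87.4% and 84.0%) and H2ac22 with H2ac12 (80.5%). The 10 pairs are therefore not separate observations. Of the H2B partners, H2bc4 and H2bc21 are on the list of genes also made as polyadenylated mRNA. In the first step all but 1 of the differences lay between −0.18 and 0.1, the exception being H2ac20 and H2bc21 (−1.36). H2ac22 and H2bc22 fell alike over the course (−3.99 and −3.98), as did H2ac11 and H2bc11 (−3.69 and −3.5), while H2ac12 and H2bc12 differed by 2.78 in size (−6.25 and −3.47).

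H2ac20 and H2bc21 on chromosome 3 differed most, with −2.92 ± 0.304 (adjusted p = 3.02e-06) for H2ac20 beside the −0.13 of H2bc21. H2ac20 held 189, 184 and 154 CPM at E10.5, 82.2, 80.2 and 59.0 CPM at E12.5 and 13.9, 17.8 and 37.8 CPM at E14.5. Its groups did not overlap, unlike those of its neighbour. GENCODE leaves 238 bases between their starts, and RefSeq places the start of H2bc21 nearer to H2ac20. The 191 bases between the RefSeq gene starts (GRCm38.p6, chr3:96220881-96221071, written 5′ to 3′ on the minus strand, towards H2ac20) are shown because they lie between a gene that fell and a gene that did not pass the test. Capitals mark CCAAT on either strand and TATAAA.
H2ac20 and H2bc21: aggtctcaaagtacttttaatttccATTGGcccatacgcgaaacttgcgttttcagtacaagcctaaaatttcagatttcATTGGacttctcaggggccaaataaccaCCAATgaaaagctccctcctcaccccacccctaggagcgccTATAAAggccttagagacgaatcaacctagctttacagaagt
It holds 3 CCAAT motifs and 1 TATAAA. The octamer of this pair, given next, lies between the RefSeq and the GENCODE start of H2bc21 and so outside the stretch printed.

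The octamer ATTTGCAT is the motif classically described in H2B promoters, where Oct1 (Pou2f1) binds it. The 250 bases before the RefSeq start (GRCm38.p6) were searched on both strands in the 57 members with an entry. RefSeq starts at the first coding base in several members, so their windows include transcribed sequence. The octamer was found in 13 of them (22.8%), in 10 distinct stretches of DNA since head-to-head genes share theirs, and in 1.81% of 27025 promoters of all genes. It was found in 7 of 15 H2B and 6 of 15 H2A promoters, and in none of the H1, H3 and H4 promoters. Examples with the octamer in capitals, from the H2B genes with the highest counts and from the pair above, are the following.
H2bc18 (chr3:96269644-96269667, plus strand): gaaacctcATTTGCATacaagctc
H2bc3 (chr13:23746636-23746659, plus strand): agtctcttATTTGCATaaagcctt
H2bc14 (chr13:21722011-21722034, plus strand): tcgtctctATTTGCATaacagcgt
H2ac20 (chr3:96221065-96221088, minus strand): aacgccttATGCAAATtaggtctc
CCAAT on either strand was found in 47 of 57 members (82.5%, against 37.5% of all promoters), in all H1, H2A and H2B promoters but in 3 of 11 H4 promoters. TATAAA was found in 49.1% of members and in 14.3% of all promoters. The change over the course hardly differed with the octamer. The median was −3.84 in 5 tested H2A genes with it and −3.9 in 9 without, and −3.37 in 7 H2B genes with it and −3.52 in 8 without.

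The course was set beside genes of proliferation. Of 34 tested S phase genes (replication licensing, polymerase clamp, nucleotide supply and their regulators), 34 were lower at E12.5 than at E10.5, with a median of −1.05. From E12.5 to E14.5, 32 were lower with a median of −0.83, and 1, the transcription factor E2f1, was higher (0.6 ± 0.0875, adjusted p = 0.000106). Over the course 33 were lower, with a median of −2.01. Of 19 tested mitosis genes, 19 were lower in each comparison, with medians of −1.11, −0.96 and −2.02. The first step of the histone genes (−1.08) was thus close to that of both lists, while the second (−2.07) and the whole course (−3.22) were larger in size than theirs. In the 12 members with at least 80% unique stretches the medians were −1.04, −1.54 and −2.56, so the excess over both lists was smaller there. The difference between the lists was not tested.

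The DNA clamp Pcna held 273, 228 and 227 CPM at E10.5, 103, 98.5 and 94.3 CPM at E12.5 and 58.7, 59.2 and 53.5 CPM at E14.5. Mki67, which is present in cycling cells, held 1136, 1180.3 and 1089.6 CPM, then 659.6, 649.7 and 653 CPM, and then 307, 475 and 411 CPM. Both genes fell in each step, as the histones did. The ratio of summed histone CPM to the summed S phase genes was 1.96, 1.98 and 1.71 at E10.5 and 1.94, 1.89 and 1.74 at E12.5. At E14.5 it was 0.772, 0.88 and 1.34, below every earlier library. The ratio to the summed mitosis genes was 2.36, 2.45 and 2.32, then 2.45, 2.21 and 2.02, and then 1.23, 0.951 and 1.53. Per S phase transcript, there was about as much histone mRNA at E12.5 as at E10.5, and less at E14.5. Split by kind, the H1 sum was 5179.7, 5370.5 and 4606 CPM at E10.5 and 836, 906 and 995 CPM at E14.5. The core histone sum was 10620.2, 10616 and 8842 CPM at E10.5 and 761, 984 and 1677 CPM at E14.5 and thus dropped by more.

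**Figure D3:**
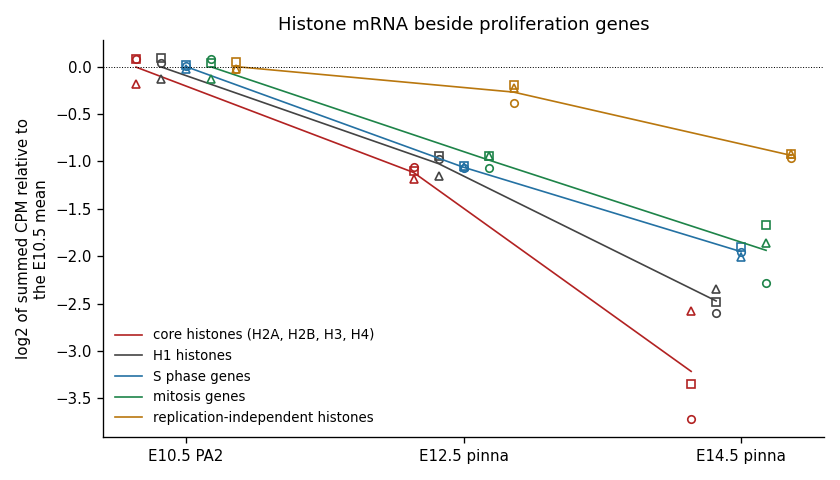
Log2 of summed CPM relative to the E10.5 mean for core histones, H1 histones, S phase genes, mitosis genes and replication-independent histones. Symbols are replicates 1 (circle), 2 (square) and 3 (triangle) and lines join group means. The lines for both histone groups, S phase and mitosis run close together to E12.5, and at E14.5 the core histones lie lowest and most spread.

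The regulators of histone mRNA had smaller medians than the histones. Of 17 genes of histone transcription and 3′ processing, 14 were lower and 2 higher at E12.5 than at E10.5 (median −0.51). The counts were 10 lower and 1 higher from E12.5 to E14.5 (median −0.27), and 13 lower and 2 higher over the course (median −0.71). Slbp, the stem-loop binding protein, held 159.5, 160.3 and 152 CPM, then 108, 108 and 97.7 CPM, and then 59.6, 71.5 and 64.7 CPM (over the course −1.27 ± 0.0736, adjusted p = 2.01e-08). Npat held 96.8, 98.4 and 95.8 CPM, then 87.6, 99.4 and 93.5 CPM, and then 96.2, 110.4 and 92.1 CPM (0.04 ± 0.0744, adjusted p = 0.646), so that its groups overlapped. Of 15 tested histone chaperones, which carry histones to DNA, 13 were lower over the course and 1 was higher (13 and 1 in the first step, 10 and 0 in the second). Of 8 tested cell cycle inhibitors, 5 were higher over the course and 2 lower (5 and 2 in the first step, 2 and 1 in the second). Cdkn1c, an inhibitor of cyclin-dependent kinases, rose from 129, 172 and 190.3 CPM at E10.5 to 677, 633 and 631 CPM at E12.5 and stood at 721, 732 and 1042 CPM at E14.5.

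Replication-independent histones are used outside S phase as well, and most are made from polyadenylated mRNA. They did not move as one. Of 11 tested, 8 were lower and 2 higher at E12.5 than at E10.5, 10 lower and 1 higher from E12.5 to E14.5, and 9 lower and 1 higher over the course (median −2.05). H2ax, whose mRNA is also made in a stem-loop form without a tail, fell from 391, 447 and 390.3 CPM at E10.5 to 27.5, 33.6 and 46.8 CPM at E14.5 (−3.51 ± 0.16, adjusted p = 2.9e-09), about as far as the clustered H2A genes. H1f0, the linker histone of cells at rest, held 522, 543 and 529 CPM, then 669, 785 and 811 CPM, and then 631, 627 and 635 CPM, and was higher at E14.5 than at E10.5 (0.25 ± 0.0695, adjusted p = 0.00606). It rose in the first step (0.51 ± 0.0696, adjusted p = 5.8e-05) and fell in the second (−0.26 ± 0.0694, adjusted p = 0.00667). H3f3a was the 1 gene higher in the second step (0.43 ± 0.147, adjusted p = 0.0232) and was not called over the course (0.28 ± 0.146, adjusted p = 0.097). The 5 clustered H1 genes other than H1f6 were lower in both steps.

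Since histone mRNAs lack poly(A) tails, other RNAs without a tail were counted beside them. Of 6 tested, 3 were lower and 1 higher over the course (1 and 1 in the first step, 4 and 0 in the second), with a median of −0.41 over the course. The ribosomal precursor Rn45s, which is not on that list, had means of 17908 CPM at E10.5, 13482 CPM at E12.5 and 5628 CPM at E14.5. Rmrp, the RNA of RNase MRP, held 1016, 1142 and 1124 CPM at E10.5, 1343, 1048 and 1203 CPM at E12.5 and 586, 543 and 985 CPM at E14.5. Rpph1, the RNA of RNase P, rose over the course (0.61 ± 0.154, adjusted p = 0.00316), and Terc, the telomerase RNA, fell (−4.37 ± 0.269, adjusted p = 3.31e-08). In the step to E14.5 the 4 called, Rmrp, Terc, Rnu11 and Rprl3, were all lower (−3.57 to −0.77), and the median of the 6 was −1.29, beside −2.07 for the histones. The part of a change in the recovery of tail-less RNA in the histone values was not tested.

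The E14.5 libraries differed from each other in core histones. Replicate 3 was the highest of the 3 in 53 of 62 members (85.5%), beside 35.5% of all tested genes. The ratio of replicate 3 to replicate 1 had a median of 2.14 over all members, 3.62 in H2A, 2.29 in H2B, 1.99 in H3 and 2.47 in H4. In the 5 H1 genes other than H1f6 it was 1.14 to 1.23. A ratio over 2 was seen in 35 members (56.5%), 1.91% of all genes, 0 of 35 S phase genes and 1 of 20 mitosis genes. The S phase genes had a median ratio of 0.957. The mitosis genes had a median ratio of 1.37 and a lowest of 1.1, so each of them was higher in replicate 3 than in replicate 1. However, replicate 2 was the highest in 14 of the 20 mitosis genes and replicate 3 in 6, with sums of 1301, 1987 and 1747 CPM. The ribosomal precursor Rn45s, at 3734, 4273 and 8877 CPM, and Rmrp, at 586, 543 and 985 CPM, were highest in replicate 3, as most histone members were. Rpph1 was not, at 2243, 1570.2 and 2241 CPM, and Terc stood at 1.96, 0.799 and 2.21 CPM. The part of these RNAs and of the mitosis genes in the core histone levels was not tested. Leaving out E14.5 replicate 3, or any other stage library, kept the number of members called lower over the course at 60.

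**Figure D4:**
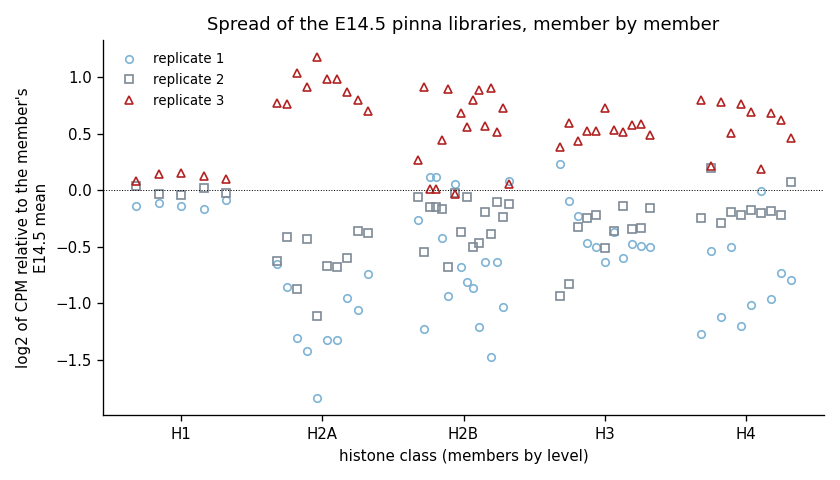
Log2 of each member's CPM relative to its E14.5 mean in the 3 E14.5 pinna libraries, members with a mean of at least 1 CPM, ordered by level within each class. Replicate 3 (triangles) lies above the others in nearly all core histone genes, with ratios to replicate 1 (median 2.33 over the core classes) that are not seen in H1 (median 1.19 without H1f6).

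A few members are germ line histones, made mainly in the testis, and they were at low levels. H1f6, the testis H1, held 5.42, 5.59 and 5.26 CPM at E10.5, 4.75, 4.54 and 4.25 CPM at E12.5 and 0.925, 1.35 and 0.416 CPM at E14.5. It was lower at E14.5 than at E12.5 (−2.32 ± 0.306, adjusted p = 5e-05). H2bc1, the testis H2B, held 16.8, 14.1 and 17.1 CPM at E10.5 and 0.771, 1.37 and 0.745 CPM at E14.5 (−4.05 ± 0.216, adjusted p = 9.98e-09), with up to 38.2% of its stretches found in another single gene. H2ac1, the testis H2A, was below the filter in both tables, at 1, 0 and 2 counts at E14.5, and was not tested. The groups of H1f6 and H2bc1 at E14.5 lay entirely below those of E12.5.

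PA2 at E10.5 was sequenced in both series, from sorted cells with single-end reads in the stage series and from dissected arches with paired-end reads in the genotype series. The tables were normalised separately, so the levels are set side by side only, as ratios of genotype to stage mean CPM in WT. Among the 12 members with at least 80% unique stretches the ratio ran from 0.616 to 2.1 (median 0.833). Among the 17 members with under 20% unique it ran from 0.0837 to 85.5, and 12 of them differed by more than 2-fold. H4c17 had a mean of 1.97 CPM in the stage series and 169 CPM in the genotype series, H4c18 2.04 and 121 CPM, H2ac18 2.55 and 111 CPM, and H3c13 161 and 13.5 CPM. These 4 genes were singled out after their values were seen. H1f5, with unique sequence, had 731 and 739 CPM, and H2bc21 15.7 and 14.1 CPM. Levels of the repeated members therefore cannot be compared between the series. Mean class sums in WT PA2 differed as well, with the stage series first. They were 5052 and 4018 CPM for H1, 1271 and 879 for H2A, 3401 and 3965 for H2B, 2861 and 1569 for H3, and 2493 and 3001 for H4. The H2B sums include H2bc23 and H2bc24, each at 19.9 CPM in the stage series and 337 CPM in the genotype series.

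Loss of HIRE1 was the contrast of the genotype series. In PA2 the 3 WT libraries held 12376, 14689 and 13231 CPM of histone mRNA, and the 3 HIRE1del libraries held 14246, 12933 and 15889 CPM, so that the groups overlapped (log2 ratio 0.10). The test called 0 of 61 members, where 0.438% of all genes were called. At an unadjusted p under 0.05 there were 2 members, beside 8.57% of all genes, and DESeq2 and limma-voom called 0 as well. That 2 became 0 without PA2 WT replicate 1 (8.03% of all genes), 5 without WT replicate 2 (8.2%, beside 9.57% of all genes) and 7 without HIRE1del replicate 2 (11.5%, beside 6.32%). The members leaned up, with 54 of 61 positive (88.5%) beside 46.9% of all genes, and a median of 0.12. Other RNAs without a tail summed to 5442, 5874 and 5259.7 CPM in WT and to 6885, 5762 and 7415 CPM in HIRE1del. Of these, 0 of 7 tested were called (median −0.03). In every group of the genotype series, the library with the highest histone sum also had the highest sum of these RNAs. Their part in the lean was not tested. The smallest p-values were those of H2bc1, at 4.99, 6.56 and 7.08 CPM in WT and 7.55, 13.8 and 9.02 CPM in HIRE1del (0.7 ± 0.26, adjusted p = 0.444), and of H4c3, at 234, 272 and 261 CPM against 314, 281 and 362 CPM (0.32 ± 0.126, adjusted p = 0.494).

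In PA3 the sums were 10862, 11817 and 14286 CPM in WT and 14485, 12415 and 13285 CPM in HIRE1del, again overlapping (log2 ratio 0.12). The test called 0 of 61 members (0.216% of all genes), with 5 at an unadjusted p under 0.05 (9.73% of all genes) and 0 by DESeq2 or limma-voom. Without PA3 WT replicate 3, whose sum was the highest of PA3 WT, 27 members (44.3%) had an unadjusted p under 0.05, beside 8.99% of all genes under the same omission, and 0 were called. Without PA3 WT replicate 2 there was 1, beside 1258 of all 14314 genes tested. Without PA3 replicate 1 of WT or of HIRE1del there were 0, beside 970 of 14307 and 1214 of 14350 genes. There were 57 positive members (93.4%, beside 49.3% of all genes), with a median of 0.13. Other RNAs without a tail summed to 6010.5, 5595 and 6525 CPM in WT and to 7505, 5802 and 6975 CPM in HIRE1del (0 of 7 called, median 0.19). Their part was not tested here either. H2bc3 held 306, 339 and 387 CPM in WT and 433, 388 and 410.3 CPM in HIRE1del (0.25 ± 0.0862, adjusted p = 0.376). H2bc18 held 664, 662 and 779 CPM against 787, 742 and 815 CPM (0.15 ± 0.0644, adjusted p = 0.472). Of all 62 members, none passed the test in either arch, and members share reads, so that their common sign is not 61 separate observations. The S phase genes had medians of 0.05 in PA2 and 0.07 in PA3, with 0 of 35 called. The effect of HIRE1 loss was also compared between the arches. In that test 0 of 61 members were called (0.0487% of all genes), 0 had an unadjusted p under 0.05 (5.52% of all genes), and the smallest p-values were those of H2bc18 (−0.15 ± 0.091, adjusted p = 0.897) and H2ac7 (−0.36 ± 0.241, adjusted p = 0.897). DESeq2 and limma-voom called 0 there too. Without PA3 WT replicate 3, 8 members (13.1%) had an unadjusted p under 0.05, beside 4.82% of all genes, and 0 were called. Without PA3 HIRE1del replicate 1 these were 2 members (3.28%, beside 6.87%) and 0.

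**Figure D5:**
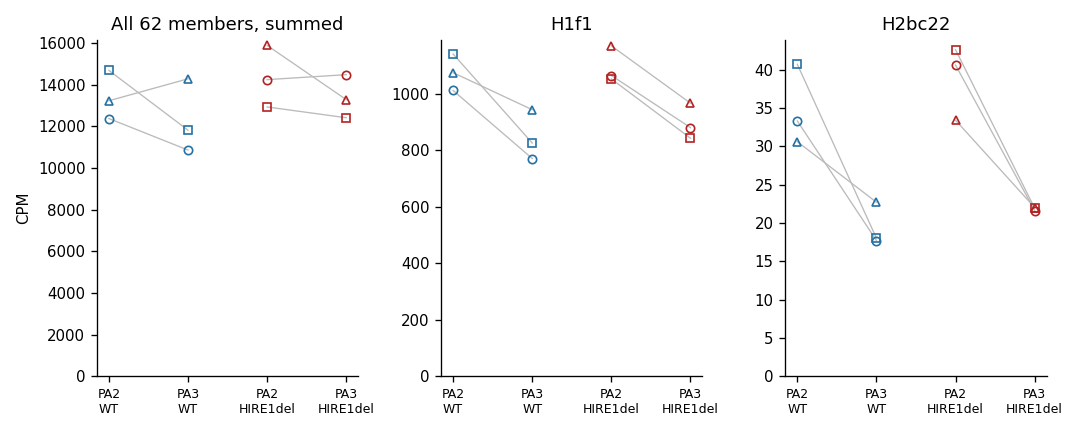
CPM of all 62 members summed, of H1f1 and of H2bc22 in the 12 libraries of the genotype series (WT blue, HIRE1del red), with circles, squares and triangles for replicates 1, 2 and 3 and grey lines joining the same replicate number of PA2 and PA3. The sums overlap in all groups, while H2bc22 lies between 30.6 and 42.6 CPM in PA2 and between 17.7 and 22.7 CPM in PA3.

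PA3 was compared with PA2 within each genotype. In WT, 8 of 61 members were lower in PA3 and 0 higher, beside 17.4% of all genes lower and 36.5% called in either direction, so the members' share (13.1%) was no larger than the background with all libraries in. In HIRE1del, 6 members were lower and 0 higher (9.84%), beside 14.7% of all genes lower and 33.4% called. Of the 12 members with at least 80% unique stretches, 4 were lower in each genotype (33.3%), a larger share than in all genes. The summed histone CPM overlapped between arches, with log2 ratios of −0.12 and −0.10. Same-numbered PA2 and PA3 libraries of a genotype deviated together (r = 0.167 to 0.355 across genes). Whether they came from the same embryos is not given in the sources used here. With the replicate number within genotype as a block, 13 and 10 members were lower (21.3% and 16.4%, beside 20.5% and 17.9% of all genes). Single libraries decided many of these calls. In WT the count was 3 without PA2 replicate 2 or 3 (4.92%, beside 16.2 and 13.1% of all genes) and 4 without PA3 replicate 1 or 2 (6.56%, beside 13.7 and 13.3%). Without PA3 replicate 3 it was 17 (27.9%), about 2 times the 13.7% of all genes, and so above the background. Without PA2 replicate 1 it was 10 (16.4%, beside 13.7%). In HIRE1del it was 3 without PA2 or PA3 replicate 1, 1 without PA3 replicate 2, 4 without PA3 replicate 3, and 2 without PA2 replicate 3, of which H3c14 was called higher. Over these omissions the share lower was 1.64 to 6.56% of members and 10.8 to 13.7% of all genes. Without PA2 replicate 2, 8 members were lower (13.1%, beside 10.7%).

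All members called in this comparison were H1 or H2B genes, 2 and 6 in WT and 2 and 4 in HIRE1del. H2bc22 had the largest difference and kept its call without any single library. It held 33.3, 40.7 and 30.6 CPM in WT PA2 and 17.7, 18.0 and 22.7 CPM in WT PA3 (−0.84 ± 0.124, adjusted p = 0.000208). In HIRE1del it held 40.6, 42.6 and 33.4 CPM against 21.6, 21.9 and 22.0 CPM (−0.83 ± 0.124, adjusted p = 0.00023). The arches did not overlap in either genotype. H1f1 held 1011, 1140.1 and 1074 CPM in WT PA2 and 770.2, 825 and 943 CPM in WT PA3 (−0.34 ± 0.0786, adjusted p = 0.00414), and H1f5 702, 774 and 740.4 CPM against 517, 572 and 668 CPM (−0.33 ± 0.0752, adjusted p = 0.00383). Both kept their calls in WT without any single library. H2bc21, at 12.1, 15.2 and 15.0 CPM against 11.2, 10.8 and 11.1 CPM in WT (−0.36 ± 0.101, adjusted p = 0.0141), lost its call without PA2 WT replicate 2 or 3. H2bc14, at 368, 458 and 389 CPM against 299, 327 and 381 CPM (−0.27 ± 0.0948, adjusted p = 0.0396), lost it without PA2 replicate 2 or 3 or PA3 replicate 1 or 2, and so did H2bc3, H2bc6 and H2bc13 (−0.27 to −0.25). In HIRE1del, H1f1 (−0.29, adjusted p = 0.0123), H1f5 (−0.23, adjusted p = 0.0312), H2bc21 (−0.34, adjusted p = 0.019), H2bc6 (−0.28, adjusted p = 0.0297) and H2bc13 (−0.26, adjusted p = 0.0483) each lost the call without at least 1 library.

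The cell content of the arches moved with this comparison. All 8 erythroid markers were higher in PA3, with sums of 1530.4 to 2408 CPM in WT PA2 and 12411 to 24337 CPM in WT PA3 (1588 to 3331 and 14476 to 24551 CPM in HIRE1del), and all 5 neuronal markers were higher as well. Markers of the labelled cell type were mostly lower in PA3, 5 of 6 crest mesenchyme markers in WT (median −0.52, 1 higher) and 4 of 6 in HIRE1del (median −0.37, 2 higher). That list holds Hoxa2, which HIRE1 loss lowered more in PA2 than in PA3. Hoxa2 is thus 1 of the 2 higher in HIRE1del (2.02), where it does not measure cell content. Of 6 endothelial markers 5 were higher in each genotype, and of 6 epithelial markers 4 were higher and 1 lower. Of the S phase genes, 17 of 35 were lower in WT PA3 (median −0.17) and 15 in HIRE1del PA3, and of the mitosis genes 10 and 6 of 20. The part of these in the histone values was not tested.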

How the data were processed

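The authors aligned the reads to GRCm38 (mm10) with QuasR, with spliced alignment, and deposited raw counts per gene over UCSC known gene exons, in the orientation opposite to the gene. Reads of 50 bases were single-end in the stage series and paired-end in the genotype series; per the labels, bcl2fastq 2.17 and 2.20 were used. The labels describe the kit as unstranded, which does not match counting in 1 orientation, so reads of a gene and of an antisense partner may be mixed. No histone member shared annotated exonic bases with another counted gene on the opposite strand. How reads with several alignments were counted is not given in the sources used here.

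Tests on the counts used edgeR 4.0.16 under R 4.3.3 (TMM, a minimum of 1 CPM in 2 or more libraries, 1 model per table with a mean per group, two-sided quasi-likelihood test, Benjamini-Hochberg over all genes), with DESeq2 1.42.0 and limma 3.58.1 as alternatives. CPM were scaled by TMM (factors 0.946 to 1.04). SE was derived from the test statistic. The script was tested on simulated data. Positions are from GENCODE M21.

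The rule named the 3 members of each class with the highest mean CPM, the 3 largest called rises and falls per stage comparison, up to 5 called members per genotype or arch comparison, or the 2 with the smallest p, and the list genes of highest level with Slbp, Npat, Mki67 and Pcna. Other genes were named after their values were seen. The members and lists were chosen with earlier results of these data known.

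Same-numbered PA2 and PA3 libraries of a genotype deviated together in 6 of 6 pairs (r = 0.167 to 0.355 over genes). A block for the replicate number within genotype was therefore added after seeing the data. The labels do not say that such pairs share embryos. In the other 21 same-numbered pairs r was −0.298 to 0.232. Between differently numbered libraries of different groups r ran from −0.312 to 0.271, so some of them were as alike as the 6 pairs. Between replicates, chi-square over its degrees of freedom ran from 7.0 to 46.5, so no library was a copy.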

Additional observations from a re-analysis of the deposited data

How the results depend on the processing

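The stage comparisons kept their direction under every alternative run, namely another scaling or filter, DESeq2, limma-voom, a replicate block, stricter thresholds and leaving out 1 library. Among the 12 members with mostly unique sequence, 10 were lower at E12.5 than at E10.5, and 11 were lower in each of the other 2 stage comparisons. With a replicate block 56, 60 and 60 members were lower in the 3 stage comparisons, although same-numbered stage libraries did not deviate together. The arch comparison depended on the setting. In WT, 4 members were called with 1 CPM required in every library, and 13 with the replicate number within genotype as a block. There were 3 at an adjusted p under 0.01 and 0 with a log2 fold change of at least 1. Among the 12 members with mostly unique sequence there were 4 (33.3%, beside 17.4% of all genes lower), and without 1 library 3 to 17 members were called. In HIRE1del, 10 were called with the replicate number within genotype as a block, and 1 at an adjusted p under 0.01. There were 0 with a log2 fold change of at least 1, and 1 to 8 without 1 library. Among the 12 members with mostly unique sequence there were again 4 (33.3%, beside 14.7% of all genes lower). A replicate block across genotypes gave 10 and 7. The cause of these shifts was not tested, other than that stricter thresholds and fewer genes lower a count. Of 2788 alternative values for single members, 2722 kept direction and call, 49 lost the call, 17 gained it and 0 reversed. Depth limited H2ac1 and the E14.5 value of H2ac12, which rested on 1, 10 and 47 counts.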
